A study of Mus musculus with 19 samples.

Results

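The genes described here are Tsc22d3, the glucocorticoid-induced leucine zipper gene, and 8 others tied to glucocorticoid signalling: Fkbp5, Sgk1, Dusp1, Zbtb16, Tat, Tdo2, Nr3c1 and Hsd11b1. They were found by gene symbol, which gave 10 probes of the 23568 in the mouse liver table, and 9 symbols of 18788. Tsc22d3 was selected on its difference between knockout and wild type on the atherogenic diet, and the others were added to ask whether further glucocorticoid-responsive genes moved with it. Values of these 9 genes from that contrast are therefore given as a description without a test.

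Liver RNA came from B6 wild-type mice and from B6 mice lacking 5-lipoxygenase (5LO KO), the enzyme that begins leukotriene synthesis, all 20 weeks old. They had eaten normal chow or an atherogenic diet rich in fat, cholesterol and cholate for 16 weeks. On chow there were 5 wild-type and 5 knockout mice, and on the atherogenic diet 4 wild-type and 5 knockout mice. Each array carried 1 mouse in Cy5 and, in Cy3, a pool of wild-type RNA matched for diet, made from 5 chow livers or 4 atherogenic livers. The labels used here do not state the knockout allele or the mice's sex.

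Glucocorticoids such as corticosterone bind the receptor encoded by Nr3c1, which then enters the nucleus and binds DNA, in its classic form at a palindrome of paired half-sites. In hepatocytes this induces enzymes of amino acid breakdown and glucose production, and in immune cells it restrains inflammatory genes. The hormone rises with stress, fasting and the daily cycle, so its target genes are often read as a group.

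The receptor's half-site, AGAACA or its reverse complement TGTTCT, was searched in RefSeq promoter windows of the GRCm38.p6 build, each running from 250 bases before to 50 bases after a gene start. Windows were found for 7 of the 9 genes, 14 windows in all; Nr3c1 and Zbtb16 had none in the table. A half-site occurred in 6233 of all 32851 windows (19%) and in 4 of the 14. Both half-sites facing each other across 3 bases, the whole palindrome, occurred in 3 of the 32851 windows (0.00913%), 1 of them a start of Sgk1. Of the 3 Tsc22d3 starts, 1 held a single half-site, which begins at position -185 from the start, and the other 2 held none. These 2 windows are shown because they are the Tsc22d3 window with a half-site and the window of its companion genes with the whole palindrome. Capitals mark the half-sites. In the Sgk1 window, the palindrome's half-sites begin at positions -189 and -180, and another half-site lies at -242.
Tsc22d3, chrX:140600473-140600772, minus strand: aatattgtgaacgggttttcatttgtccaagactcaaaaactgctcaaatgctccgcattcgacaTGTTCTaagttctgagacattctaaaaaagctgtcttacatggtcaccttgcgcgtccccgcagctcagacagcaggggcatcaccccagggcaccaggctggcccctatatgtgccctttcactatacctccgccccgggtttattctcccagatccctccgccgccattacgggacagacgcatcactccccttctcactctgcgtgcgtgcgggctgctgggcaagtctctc
Sgk1, chr10:21993640-21993939, plus strand: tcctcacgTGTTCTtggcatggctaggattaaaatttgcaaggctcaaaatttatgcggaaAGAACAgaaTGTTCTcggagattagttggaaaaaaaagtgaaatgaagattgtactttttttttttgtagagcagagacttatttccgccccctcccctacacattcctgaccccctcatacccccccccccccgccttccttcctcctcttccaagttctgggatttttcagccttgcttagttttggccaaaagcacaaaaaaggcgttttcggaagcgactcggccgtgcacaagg
The single windows of Fkbp5, Tat, Hsd11b1, Dusp1 and Tdo2 held no half-site. A match is a run of letters and no measurement of receptor binding, and these windows leave out more distant elements.

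Values below are log2(mouse/pool) unless another scale is named, and letters A to E distinguish the mice within a group. Between 22763 and 23511 probes were measured on an array, and the number of arrays limits the precision. The array of knockout chow mouse D stood apart, with an SD of its log2 ratios over probes of 1.01 against 0.239 to 0.538 on the other 18. The single probe of Alox5, the deleted gene, was dim and differed by 0.21 on chow (95% interval -0.10 to 0.52), so it did not check the labels. Hepatocyte markers had 9 probes fitted, each brighter than at least 55.5% of the table. None was called by limma between the genotypes on either diet, against 1.13% of all probes on chow and 0.0214% on the atherogenic diet. At an unadjusted p under 0.05 were 1 of the 9 on chow and 3 on the atherogenic diet, against 6389 and 2508 of all 23344 probes. Since whole liver was measured, fewer cells of a type and less RNA per cell cannot be told apart.

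Tsc22d3 encodes a small leucine zipper protein that binds and restrains NF-kappaB and AP-1, and glucocorticoids induce it directly. On chow the wild-type mice A to E measured -0.06, -0.26, 0.11, 0.05 and 0.10, and the knockout mice A to E measured 0.64, 0.60, 0.65, 0.86 and 0.63. Every knockout mouse lay above every wild-type mouse, and 4 of the 5 knockout mice lay within a narrow band. The means were -0.01 ± 0.15 in wild type and 0.67 ± 0.10 in knockout (SD, n = 5 each).

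The chow mice took no part in selecting Tsc22d3, so its difference there was tested. The fit held the mice of both diets under a shared variance. Its SE and adjusted p therefore also drew on the spread of the atherogenic mice that selected the gene. Tsc22d3 rose by 0.68 on the log2 scale in knockout (SE 0.13, limma adjusted p = 0.0341), a 1.61-fold difference with a 95% interval of 1.32 to 1.96. Of the 9 probes fitted for these genes it was the 1 called, against 1.13% of all 23344 probes. It was likewise the 1 of 9 whose genotypes did not overlap, against 3.39% of all probes. The call was close to the threshold. It was lost when any of 6 of the 10 chow mice was left out: wild-type B (0.62, adjusted p = 0.0819), D (0.70, 0.0797) or E (0.71, 0.0962), or knockout B (0.70, 0.0787), D (0.64, 0.0541) or E (0.70, 0.0509). It was also lost when ratios were quantile normalised between arrays (0.52, adjusted p = 0.314) or scaled to one spread (0.42, 0.797). When only the chow groups were fitted, so that no selecting mouse entered, the difference stayed at 0.68 but did not pass (adjusted p = 0.0573).

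On the atherogenic diet the wild-type mice A to D measured -0.49, -0.10, 0.19 and 0.11, and the knockout mice A to E measured 1.07, 0.62, 1.05, 1.29 and 0.90. The genotypes again did not overlap. The knockout mean was 0.99 ± 0.25 (n = 5) and the wild-type mean -0.07 ± 0.30 (n = 4), a difference of 1.06 or 2.08-fold, the value on which the gene was selected. Across all probes 0.0214% were called in this contrast and 5.11% did not overlap; nothing is read from Tsc22d3 being among them. The difference between the diets' knockout effects was 0.37 (95% interval -0.04 to 0.79), a description for Tsc22d3.

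In the authors' deposited table, the p-value of each array for Tsc22d3 was under 0.01 in 5 of 5 knockout mice on chow, all with the mouse higher than the pool, and in 0 of 5 wild-type mice on chow. For scale, the authors' deposited table holds 14.7% of all values under 0.01 in knockout mice on chow and 2.64% in wild-type mice on chow. In the knockout chow mice it was also under 0.01, with the mouse lower, in 4 of 5 for Sgk1 and Tdo2, 3 for Fkbp5 and 1 for Hsd11b1. With the mouse higher, this held in 1 of 5 for Dusp1 and for a second Sgk1 probe. In wild-type chow mice it held in 2 of 5 for Fkbp5, Sgk1 and Dusp1 and in 1 for Tdo2, all lower.

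**Figure D1:**
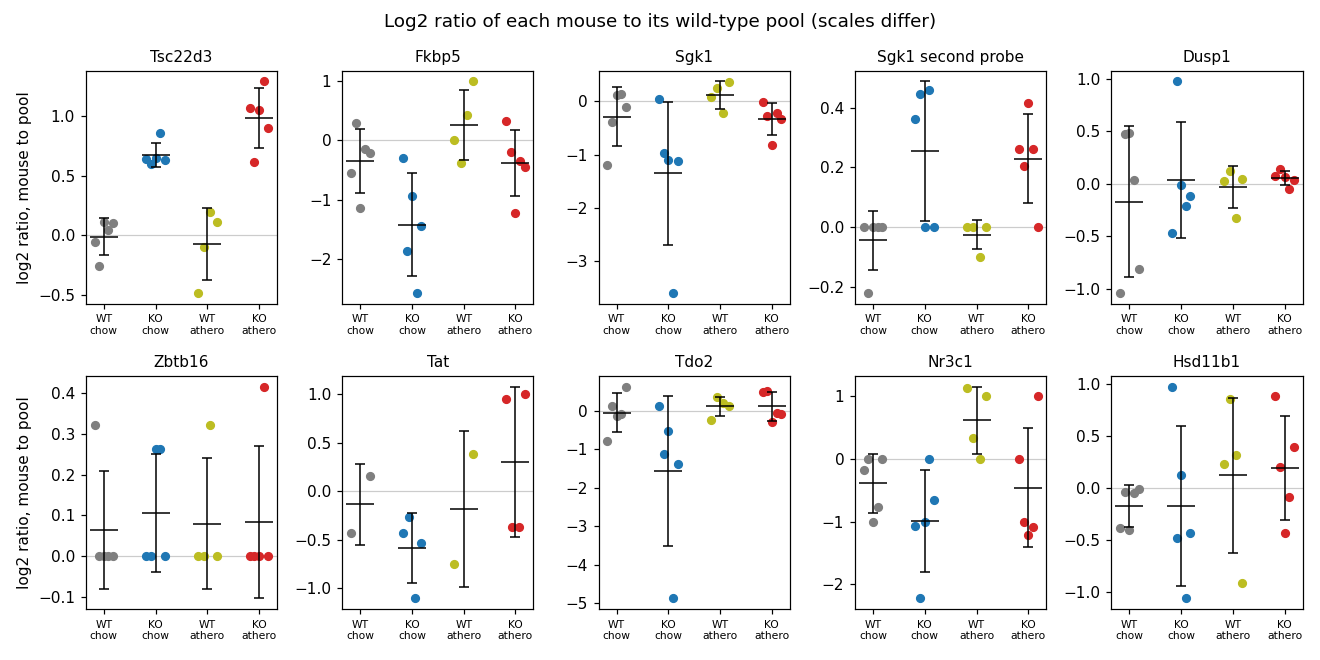
Log2 ratio of mouse to pool (y axis) for each of the 10 probes by group (x axis), with 1 point per mouse, a dash at the group mean and bars of 1 SD. Tsc22d3 is the panel in which every knockout mouse sits above every wild-type mouse on both diets, while Fkbp5, Sgk1 and Tdo2 spread downward in knockout mice on chow.

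The direct targets came next. Fkbp5 encodes a co-chaperone that lowers the receptor's affinity for hormone and is among the genes most readily induced by glucocorticoids. On chow it measured -0.55, 0.29, -1.14, -0.14 and -0.21 in wild-type A to E and -0.29, -1.87, -0.93, -2.58 and -1.44 in knockout A to E. It ran lower in knockout, with 3 of the 5 knockout mice below every wild-type mouse, which is the opposite side from Tsc22d3. Deposited intensities of the knockout chow mice were only 0.04 to 0.18, with 2 decimals, so these ratios are coarse. The difference of -1.08 (SE 0.39, limma adjusted p = 0.106) did not pass, and was -0.79 without knockout D. It shrank to -0.40 (adjusted p = 0.757) with quantile normalisation and to -0.18 (0.942) with ratios scaled to one spread.

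Sgk1, a kinase that promotes sodium transport and cell survival, was measured by 2 probes. The brighter one gave -1.20, -0.39, 0.12, 0.14 and -0.11 in wild-type chow mice and 0.04, -0.97, -1.10, -3.61 and -1.13 in knockout chow mice. Knockout D alone lay below every wild-type mouse. The difference was -1.07 (SE 0.46, adjusted p = 0.147), and without knockout D it was -0.50 (adjusted p = 0.337). Quantile normalisation gave -0.47 and scaling to one spread -0.23. The second probe, which is dim, differed by 0.30 in the other direction (SE 0.11, adjusted p = 0.106), and its intensities in mouse and pool were equal to the last deposited digit on 10 of 19 arrays. The 2 probes of this gene lay on opposite sides of 0.

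Dusp1, a phosphatase that switches off MAP kinases, measured -1.04, 0.48, 0.48, 0.03 and -0.81 in wild-type chow mice and -0.47, 0.97, -0.01, -0.21 and -0.11 in knockout chow mice. Both groups straddled the pool. The difference was 0.20 (95% interval -0.39 to 0.80, adjusted p = 0.663). Zbtb16, a zinc finger repressor strongly induced by glucocorticoids in several human tissues, was dim, and its intensities were equal in mouse and pool on 14 of 19 arrays. Its chow difference was 0.04 (95% interval -0.19 to 0.27, adjusted p = 0.836).

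Tdo2 encodes tryptophan dioxygenase, which starts hepatic tryptophan breakdown, and Tat encodes tyrosine aminotransferase, which starts tyrosine breakdown; both are classic hormone-induced liver enzymes. Tdo2 measured -0.79, 0.11, -0.13, -0.09 and 0.62 in wild-type chow mice and 0.11, -1.14, -0.52, -4.87 and -1.40 in knockout chow mice. Again 3 of 5 knockout mice lay below every wild-type mouse, with knockout D far beneath the rest. The difference was -1.51 (SE 0.62, adjusted p = 0.136) and without knockout D -0.68 (adjusted p = 0.227). Quantile normalisation gave -0.92 and scaling to one spread -0.61.

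Tat was measured on 12 of 19 arrays and was not tested, since 3 values per group were required. Of the 75 probes as bright as Tat or brighter, 58.9% of values were missing, against 0.817% of all values. On chow it measured -0.43 in wild-type A and 0.16 in D, and -0.43, -0.27, -1.10 and -0.53 in knockout B to E. On the atherogenic diet it measured -0.75 in wild-type A and 0.38 in D, and 0.95, -0.36, -0.36 and 1.00 in knockout A to D. The genotypes overlapped on both diets. With 2 values per group allowed, a choice made after seeing the data, the differences were -0.45 on chow (limma adjusted p = 0.556) and 0.49 on the atherogenic diet.

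Nr3c1, the receptor itself, was measured by a probe brighter than only 8.24% of the table, with intensities between 0.00214 and 0.02. Its chow difference was -0.60 (95% interval -1.49 to 0.30, adjusted p = 0.366), and deposited digits this coarse give its ratios few distinct levels. Hsd11b1, which regenerates active corticosterone from its inert form inside hepatocytes, was bright. It measured -0.38, -0.04, -0.40, -0.05 and -0.01 in wild-type chow mice and 0.98, -0.48, 0.13, -1.06 and -0.43 in knockout chow mice. The knockout mice spread to both sides of the wild-type mice, and the means were equal, with a difference of 0.00 (95% interval -0.73 to 0.73).

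Thus 0 of the 8 other probes tested passed on chow by limma, while 4 had an unadjusted p under 0.05: Fkbp5, both probes of Sgk1 and Tdo2. Of all 23344 probes, 6389 had an unadjusted p under 0.05 there. That count rested on 1 mouse: without knockout A, the highest of the 5 knockout chow mice for these genes, limma called Fkbp5 (-1.36, adjusted p = 0.0278), Sgk1 (-1.42, 0.0368) and Tdo2 (-1.93, 0.04) lower in knockout. Fkbp5 also passed (-1.08, limma adjusted p = 0.048) with mice that share a number in their header marks as a random block. That setting was chosen after seeing the data, and its consensus correlation was -0.101, so mice sharing a number were not more alike. Those fits called many more probes in all, 16.5% of the table without knockout A and 12.5% with the random block, against 1.13% otherwise. On the atherogenic diet, where values are a description, Fkbp5 differed by -0.64, Sgk1 by -0.45, its second probe by 0.25 and Nr3c1 by -1.08, which became -0.24 when the 25th percentile of each channel was added before the ratio. Tdo2 (-0.00), Zbtb16 (0.00), Dusp1 (0.09) and Hsd11b1 (0.07) lay near 0. The genotypes of all 8 probes overlapped on both diets. Their knockout effects did not differ between the diets at the threshold (adjusted p 0.784 to 0.969), where 0% of all probes were called and 1347 had an unadjusted p under 0.05.

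**Figure D2:**
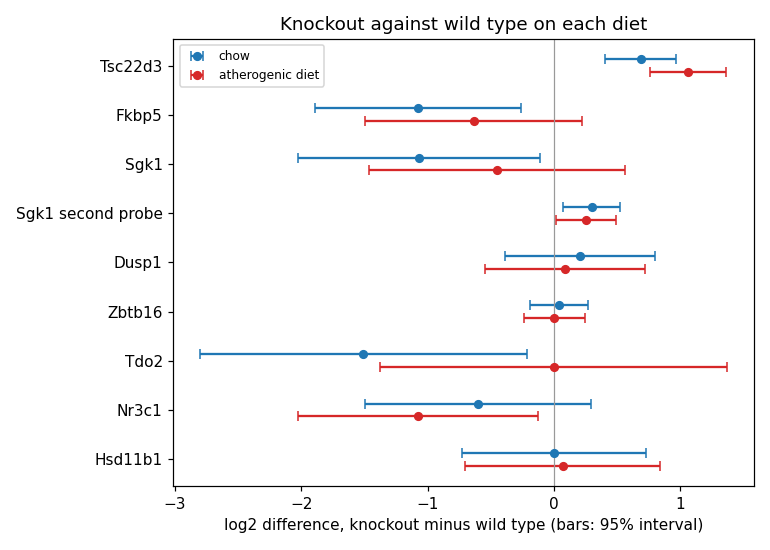
Log2 difference of knockout minus wild type (x axis) for the 9 probes fitted (y axis), on chow in blue and on the atherogenic diet in red, with 95% intervals from limma. Tsc22d3 lies at 0.68 and 1.06 with short intervals, and the brighter Sgk1 probe, Fkbp5 and Nr3c1 lie below 0 on both diets with wide ones.

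The mice of a group gave a second view, free of the group means whose difference selected Tsc22d3. Each mouse's deviation from its group mean in Tsc22d3 was set against that of the other genes over 19 mice, with permutation within groups. Fkbp5 had r = -0.09 (permutation p = 0.713) and rho = 0.01 (p = 0.97). Sgk1 had r = -0.15 (permutation p = 0.352) and rho = 0.08 (p = 0.715). Tdo2 had r = -0.20 (permutation p = 0.17) and rho = -0.13 (p = 0.557). None of these 3 relations passed, and their sign turned when 1 mouse was left out. Without knockout chow D, r was 0.04 for Fkbp5, 0.12 for Sgk1 and 0.05 for Tdo2, and without wild-type chow B it was 0.01 for Fkbp5.

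Dusp1 (r = -0.23, permutation p = 0.223, rho = -0.26, p = 0.257), Hsd11b1 (r = -0.27, p = 0.345, rho = -0.23, p = 0.399) and Nr3c1 (r = -0.14, p = 0.619, rho = -0.22, p = 0.413) were also below 0. The second probe of Sgk1 had r = 0.24 (permutation p = 0.247) and rho = 0.27 (p = 0.213). Zbtb16 had r = 0.47 (permutation p = 0.0749) and rho = 0.48 (p = 0.0202), from a probe with only 5 ratios other than 0. Tat, over 12 mice, had r = 0.61 (permutation p = 0.258) and rho = 0.61 (p = 0.15).

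Without the 2 mice farthest from the median of Tsc22d3, wild-type atherogenic A and knockout atherogenic B, r was 0.35 for Tat, 0.48 for Zbtb16, -0.16 for Fkbp5, -0.21 for Sgk1 and -0.30 for Tdo2. It was 0.36 for the second Sgk1 probe, -0.20 for Nr3c1, -0.34 for Hsd11b1 and -0.27 for Dusp1. The relation of Tat thus rested in part on those mice, and by diet it was -0.53 over 6 chow mice and 0.80 over 6 atherogenic mice. Fkbp5 also differed in sign by diet, with -0.59 over 10 chow mice and 0.24 over 9 atherogenic mice. Within chow and within the atherogenic diet, r was -0.31 and -0.04 for Sgk1, -0.45 and -0.02 for Tdo2, and 0.17 and 0.63 for Zbtb16. In that order it was -0.28 and -0.56 for Dusp1, -0.34 and -0.25 for Hsd11b1, 0.15 and -0.27 for Nr3c1, and 0.48 and 0.12 for the second Sgk1 probe.

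A limma fit of the slope on Tsc22d3 within groups called 0% of 22424 probes, with 976 at an unadjusted p under 0.05, and the adjusted p of the 8 probes ran from 0.822 to 0.923. Tat, with missing values, was not in that fit.

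**Figure D3:**
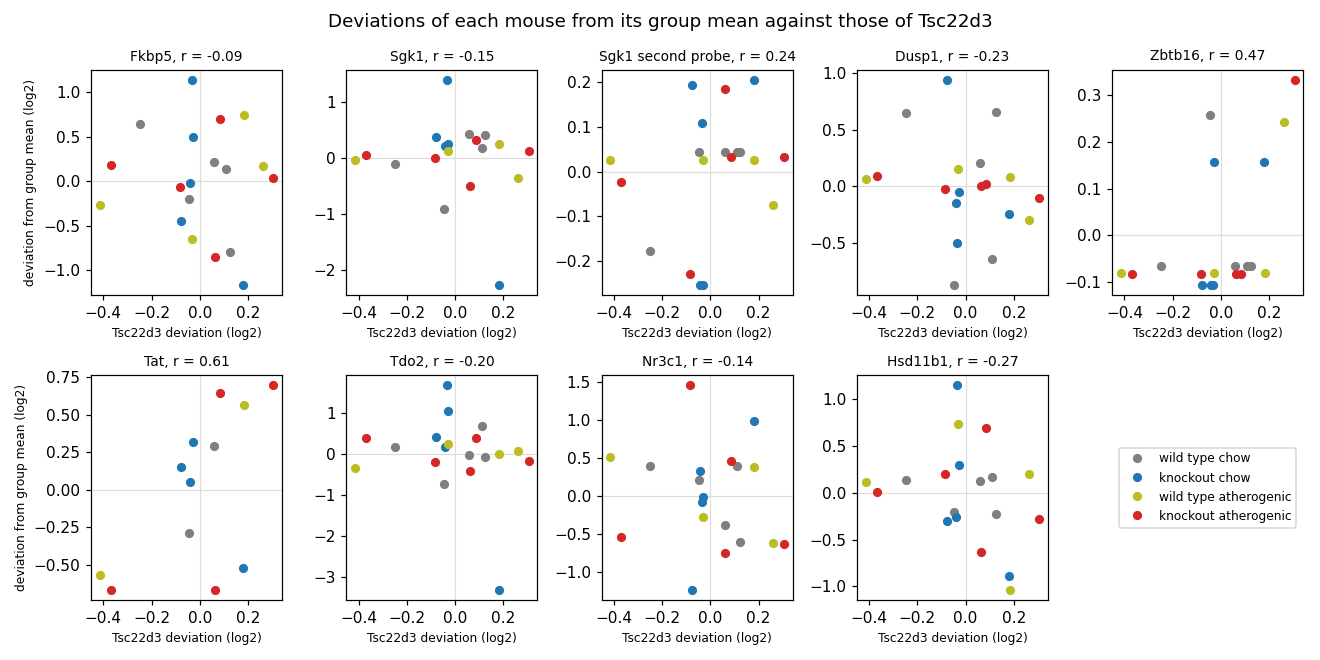
Deviation of each mouse from its group mean for 9 probes (y axis, log2) against the deviation of Tsc22d3 (x axis, log2), with 1 point per mouse coloured by group and Pearson r in each title. Tat has the highest r (0.61, 12 mice) and Hsd11b1 the lowest (-0.27), and knockout chow D is the lone low point of Sgk1 and Tdo2.

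Pairs among the 9 probes were described in the same way. Of 36 pairs, 8 of them with Tsc22d3, 5 had an absolute r above 0.5, and 0 of these 5 involved Tsc22d3. The share of all probe pairs above that level was not computed, so nothing is read from these counts. Sgk1 and Tdo2 had r = 0.92 over 19 mice and 0.69 without knockout chow D. Fkbp5 and Tdo2 had r = 0.68, and 0.59 without that mouse. Fkbp5 and Sgk1 had 0.62 and 0.41, Hsd11b1 and Tdo2 0.64 and 0.64, and Sgk1 and Hsd11b1 0.57 and 0.42. The remaining pair of these 4 genes, Fkbp5 and Hsd11b1, had 0.47 and 0.32, and the rank correlation of Sgk1 and Hsd11b1 was only 0.24. Tsc22d3 had r between -0.27 and -0.09 with these 4, and between -0.18 and 0.12 without that mouse. These correlations are a description of arrays that share 2 pools.

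**Figure D4:**
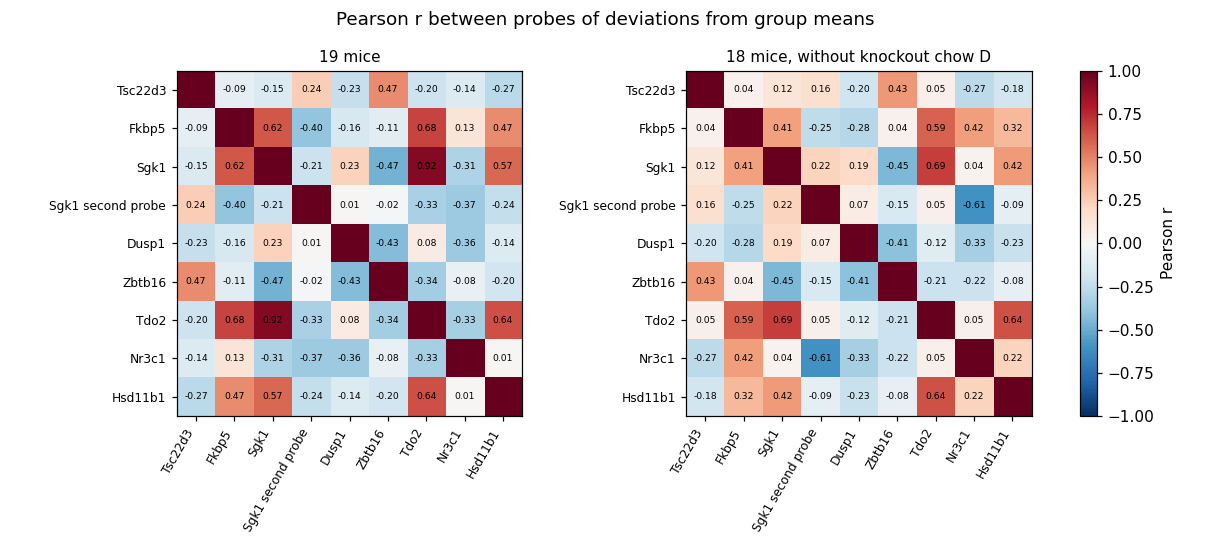
Pearson r between deviations from group means for each pair of 9 probes, over 19 mice (left) and over 18 mice without knockout chow D (right), with the colour scale from -1 to 1. Sgk1, Tdo2, Fkbp5 and Hsd11b1 form a block of positive values that is paler on the right, and the Tsc22d3 row stays pale apart from Zbtb16.

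Among 22425 probes, r with Tsc22d3 had a median of 0.01, a 5th percentile of -0.40 and a 95th percentile of 0.44. The 5 most and least like it were taken among named genes whose probe was brighter than the table's median and had a value on all 19 arrays, so higher (up to 0.82) and lower (down to -0.78) r exist outside that limit. The 5 most like it were Krt86, a hair keratin (0.74), Fam20a, a secreted pseudokinase (0.72), Arhgap44 (0.72), Plin5, a lipid droplet coat protein (0.71), and Sds, serine dehydratase (0.70). The 5 most opposed were the kinase gene Pdik1l (-0.70), Socs3, a brake on cytokine signalling (-0.70), Fign (-0.69), Gpsm2 (-0.67) and Sybu (-0.66). Their slopes had adjusted p between 0.77 and 0.822, so none passed. Between the genotypes on chow, Krt86, Fam20a, Arhgap44, Plin5 and Sds differed by 0.02, 0.05, 0.44, 0.22 and -0.02, and on the atherogenic diet by 0.02, -0.04, 0.43, 0.21 and -0.08.

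A wider list of 45 genes that the receptor is known to induce had 41 genes and 42 probes fitted. On chow 0 were called, against 1.13% of all probes, and 12 had an unadjusted p under 0.05, against 6389 of all 23344 probes. The median difference was -0.02 against 0.00 over all probes. The lowest adjusted p belonged to Cdkn1a, a cell cycle inhibitor (1.08, adjusted p = 0.0519), and Gpt, alanine aminotransferase (0.61, adjusted p = 0.055). Chosen after their values were seen, the liver enzyme genes Got1 (-1.44, adjusted p = 0.057), G6pc (-0.79, 0.0763) and Pck1 (-0.59, 0.279) lay on the other side. On the atherogenic diet 0 were called, against 0.0214% of all probes, and 7 had an unadjusted p under 0.05, against 2508 of all 23344. The median was -0.02 against 0.00 over all probes, and Ddit4, an inhibitor of mTOR signalling, differed by 1.00 (adjusted p = 0.193) and Sult1e1, an oestrogen sulphotransferase, by 2.44 (adjusted p = 0.254).

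Of 41 probes of this list with a value on all arrays, 18 were higher and 23 lower on chow, 16 higher and 24 lower on the atherogenic diet, and 10 higher on both. Within groups, 7 of the 41 (17.1%) had r above 0.5 with Tsc22d3, against 2.68% of all probes, and 1, the acute phase gene Orm1 (-0.52), had r below -0.5. The 7 were Sds (0.70), Mfsd2a, a lysolipid transporter (0.67), Angptl4, a lipase inhibitor (0.67), Ppargc1a, a coactivator of gluconeogenesis (0.63), Ddit4 (0.60), the clock gene Per1 (0.59) and the transcription factor gene Foxo1 (0.53). The list's median r was 0.12, and 0 of its slopes passed (adjusted p 0.77 or higher). Of the 7, Angptl4, Ddit4, Per1, Foxo1 and Mfsd2a were on the side of Tsc22d3 on both diets, at 0.39, 0.47, 0.52, 0.42 and 0.14 on chow, each short of the threshold, and Sds (-0.02) and Ppargc1a (-0.01) were not.

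**Figure D5:**
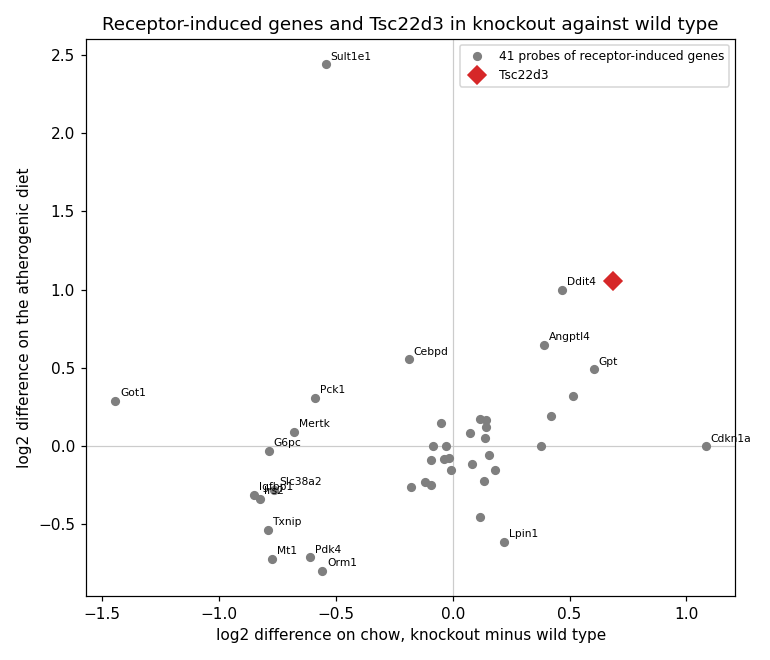
Log2 difference of knockout minus wild type on chow (x axis) against that on the atherogenic diet (y axis) for 41 probes of receptor-induced genes (grey) and for Tsc22d3 (red diamond). Tsc22d3 lies at 0.68 and 1.06 in the upper right, near Ddit4, while the grey points spread over all sides of 0.

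For the lists that follow, the background at an unadjusted p under 0.05 was 27.4% of all probes on chow and 10.7% on the other diet. Calls by limma made up 1.13% and 0.0214% of all probes in turn. The machinery around the receptor was covered by 22 genes and 26 probes for chaperones and cofactors, of which 0 were called on either diet between genotypes (8 and 3 at an unadjusted p under 0.05). The lowest adjusted p on chow were those of the pioneer factor Foxa2 (0.38, 0.0786) and the remodeller Smarca4 (0.49, 0.0944). Of 13 genes of hormone supply and clearance 0 were called (5 and 3 at an unadjusted p under 0.05). Serpina6, which carries corticosterone in plasma, differed by 0.95 on chow (adjusted p = 0.122) and 1.18 on the atherogenic diet (0.285), and Akr1c6, a steroid dehydrogenase, by -0.54 on chow (0.133). Of 24 genes that glucocorticoids are known to repress 0 were called (4 and 4 at an unadjusted p under 0.05). Their median difference was -0.09 on chow and -0.38 on the atherogenic diet, against 0.00 over all probes. Sele, an endothelial adhesion molecule, differed by 0.73 (adjusted p = 0.0574) and Il1b by -1.16 (0.0846) on chow, and Il12b by -0.80 (0.171) and Mmp13 by -1.13 (0.216) on the atherogenic diet.

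Within its own family, Tsc22d3 was the 1 member of 4 called on chow. Tsc22d1, a long-studied relative, differed by 0.86 (adjusted p = 0.0774) on chow and 0.85 on the atherogenic diet (0.284). Tsc22d2 differed by -0.78 (0.23) on chow, and the probes of Tsc22d4 by 0.40 (0.137) and 0.05 (0.746). Among 12 dual specificity phosphatase genes fitted, Dusp10, which acts on p38 and JNK, fell by 0.42 in knockout on chow (SE 0.10, limma adjusted p = 0.0474). It was the 1 gene called of these 12, against 1.13% of all probes. That call ended with quantile normalisation and with scaling to one spread, under which 0 probes of the whole table were called on chow. Of 11 tryptophan and tyrosine degradation genes fitted 0 were called (8 of 12 probes at an unadjusted p under 0.05 on chow, 2 on the atherogenic diet). The mean of these probes per mouse overlapped on chow. On the atherogenic diet it ran from 0.238 to 0.356 in knockout and from -0.103 to 0.096 in wild type, without overlap, a difference that was not tested. The means of all other lists overlapped there. Of single probes 5.11% did not overlap on that diet, and no share was computed for means of lists, so nothing is read from this. Acmsd, of the kynurenine route, differed by 0.69 on chow (adjusted p = 0.0515).

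Hormone levels follow the clock and handling, so those genes were counted too. Of 20 probes of 18 clock genes and of 17 immediate early genes, 0 were called between genotypes on either diet, with 4 and 4 at an unadjusted p under 0.05 on chow and 2 and 5 on the atherogenic diet. Per1 differed by 0.52 (adjusted p = 0.0868) and Nr1d2 by 0.23 (0.131) on chow, and Klf4 by -1.07 (0.0539) and Hspa1a by 0.81 (0.0542). The 81 probes of 9 cell marker lists gave 0 calls between genotypes on either diet (22 and 7 at an unadjusted p under 0.05). By their mean per mouse, 2 of the 9 lists separated the genotypes on chow, where 3.39% of all single probes did so. No such share was computed for means of lists, so nothing is read from this count. The 9 neutrophil probes ran from 0.54 to 2.06 in knockout and from -0.29 to 0.30 in wild type, and the 9 B cell probes from 0.21 to 0.57 and from -0.16 to 0.20. On the atherogenic diet the same neutrophil mean ran from -1.32 to 1.99 in knockout and from -0.52 to 0.38 in wild type. The median r of the neutrophil probes with Tsc22d3 within groups was 0.12. The part of these cells in the Tsc22d3 difference was not tested.

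The diets were compared on normalised log2 intensity of the mouse channel, because each diet had its own pool. Tsc22d3 averaged 2.57 ± 0.13 in wild type on chow, 2.80 ± 0.26 in wild type on the atherogenic diet (n = 4), 3.18 ± 0.10 in knockout on chow and 3.77 ± 0.29 in knockout on the atherogenic diet (SD, n = 5 elsewhere). The lower pair overlapped, and the diet difference in wild type, 0.22 (95% interval -0.11 to 0.56, limma adjusted p = 0.424), did not pass and turned to -0.20 when the mouse channel was only centred on its median, where the median of all probes was -0.18 in place of -0.04. Wild type on the atherogenic diet reached 2.97 and knockout on chow began at 3.05. The knockout groups met without overlap, at 3.29 and 3.31, a difference of 0.58 (95% interval 0.26 to 0.90) that is a description, since those knockout mice selected the gene. With median centring alone it was 0.36.

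In wild type, 1 of the 9 probes was called for the diet, against 7.16% of all probes. Zbtb16 fell by 0.74 (SE 0.19, limma adjusted p = 0.0209), with deposited intensities of 0.04 to 0.05 on chow and 0.02 to 0.05 on the atherogenic diet, a few steps of the last digit. The call was lost without wild-type chow A (adjusted p = 0.0557) or D (0.0536) or atherogenic A (0.0969) or B (0.0989). None of Fkbp5 (0.04), Sgk1 (0.42), Dusp1 (0.07), Tdo2 (-0.01), Nr3c1 (0.36) and Hsd11b1 (0.41) passed in wild type, nor did the second Sgk1 probe (0.42). In knockout, 0 of the 8 other probes were called, against 9.61% of all probes, and 3 had an unadjusted p under 0.05. Those were Tdo2 (1.23, adjusted p = 0.178), Sgk1 (0.87, 0.179) and Zbtb16 (-0.43, 0.125). Without knockout chow D, Tdo2 differed by 0.42 and Sgk1 by 0.37, and without knockout chow A Sgk1 passed (1.20, adjusted p = 0.0452). Hsd11b1 (0.55), Fkbp5 (0.43), Nr3c1 (0.41), Dusp1 (-0.12) and the second Sgk1 probe (-0.34) did not pass either.

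The wild-type pools gave a further reading, each a single RNA mixture hybridised repeatedly, so their spread is technical. The atherogenic pool lay above the chow pool by 0.20 for Tsc22d3, and it lay below for Fkbp5 (-0.60), Zbtb16 (-0.59) and Tdo2 (-0.43). The single wild-type mice had given 0.04 for Fkbp5 and -0.01 for Tdo2. The differences between pools for the remaining genes were -0.33 for Nr3c1, -0.25 for Tat, -0.16 for Dusp1, -0.07 for Sgk1, 0.01 for its second probe and -0.02 for Hsd11b1.

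Of the 41 receptor-induced genes fitted, 3 were called higher and 0 lower for the diet in wild type, where 7.16% of all probes were called. In knockout 5 were called higher and 2 lower, where 9.61% of all probes were called. In wild type these were Sds (0.96, adjusted p = 0.00142), Anxa1, an anti-inflammatory lipid-binding protein (1.63, 0.00734), and Cdkn1a (1.12, 0.0305). In knockout, Sult1e1 (3.75, 0.0019), Sds (0.75, 0.00768), Anxa1 (1.48, 0.0102) and Mertk, a receptor for dying cells (1.43, 0.0167), were among those that rose, and Gadd45b (-1.02, 0.0143) and Fgf21 (-0.99, 0.0233) fell. The list's median was -0.09 in wild type and -0.17 in knockout, against -0.04 and -0.01 over all probes. Of 24 genes that glucocorticoids repress, 8 rose in wild type (33.3%, against 4.62% of all probes called higher) and 9 in knockout (37.5%, against 5.23%), with 0 lower in either. They included Il6 (1.66 and 1.34), Cxcl1 (3.36 and 2.18) and Vcam1 (1.93 and 2.31), in wild type and knockout in turn.

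Of the receptor's partners, Crtc2 (-0.48, adjusted p = 0.0225) fell with the diet in wild type, and Crtc2 (-0.51, 0.0105), Stip1 (-0.66, 0.0203), Ncoa3 (-0.59, 0.0458) and Fkbp4 (-0.48, 0.0464) fell in knockout. Of hormone supply and clearance, Abcb1a, an efflux pump, rose in both genotypes (1.92, 1.64e-05 and 0.92, 0.0102). In knockout Abcb1b (0.77, 0.0256), Srd5a1, a steroid reductase (0.97, 0.0302), and Cyp3a11 (1.96, 0.0427) also rose, and Hsd11b2, which inactivates corticosterone, fell by 0.73 (adjusted p = 0.0295). Marker genes rose with the diet as well, 24 in wild type and 18 in knockout, over lists of 81 probes. Among them were 9 of the 11 macrophage and Kupffer genes fitted, in each genotype. Over all 23344 probes, 1079 were called higher in wild type and 1222 in knockout. The part of added immune cells in the rise of repressed genes was not tested.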

How the data were processed

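RNA was isolated with Trizol and 100 ng went through 2 rounds of amplification, per the labels' protocols. Per the submitters' processing notes, Agilent Feature Extraction 8.5.1.1 was used. Per the file headers, the authors deposited 2 intensity values and 1 p-value for each probe on each array. A second deposited table holds log10 ratios that equal the ratio of these intensities within rounding. No source used here states the background correction, dye normalisation or error model. Larger intensities carry 2 decimals, so the ratios of dim probes are coarse.

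Columns were assigned to groups, not to single samples; letters are names only. Log2 ratios were taken as deposited. Probes with 3 values or more in each group were fitted, 23344 of 23568, a filter set after the files were seen. The 4 groups of 19 mice entered 1 linear model in limma (version 3.58.1, R 4.3.3), with Benjamini-Hochberg adjustment over all probes and a threshold of 0.05. The Cy5 channel was compared between diets after loess and Aquantile normalisation. Correlations used deviations from group means, 100000 permutations within groups (two-sided, Python 3.11.15, scipy 1.17.1), and a limma slope over all probes. The fits were tested on simulated data. The labels name single mice; p-values measure the spread between them.

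The genes and lists were chosen with earlier results of these data known. The text names every probe of the 9 genes, taking the brightest as main; the list genes that passed, up to 4 per direction, or else the 2 with the lowest p, with further values of receptor-induced genes picked after they were seen; and the 5 genes most and least like Tsc22d3. The values of 1 gene from the lists are not reported here. Alternatives were other normalisations, an offset, a filter on dim probes, the second table, other variance models, fewer groups, a replicate block and leaving out each mouse. The promoter windows are from RefSeq, GRCm38.p6. The build and positions of the array's probes were not used here, nor were protein sequences.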

Additional observations from a re-analysis of the deposited data

Results flagged for a closer look

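In 38 combinations of probe and group with 4 or 5 mice, 6 had a highest or lowest mouse far from the rest by Dixon's ratio. Its chance rate of about 1 in 20 holds for values without ties. Of the 6, 5 come from ratios tied at 0, so the count cannot be set against that rate. Knockout chow D was high for Tsc22d3 (0.855, next mouse 0.65), the mouse that was lowest for Fkbp5, Sgk1 and Tdo2. The other 5 are dim probes on which every other mouse of the group had a ratio of 0: Zbtb16 in wild-type chow A (0.322), wild-type atherogenic C (0.322) and knockout atherogenic D (0.415), and the second Sgk1 probe in wild-type chow B (-0.222) and wild-type atherogenic C (-0.100).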

How the results depend on the processing

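The cause of each change given here was not tested. For Tsc22d3 on chow, quantile normalisation gave 0.522 (limma adjusted p = 0.314), scaling to one spread 0.421 (0.797), and fitting one diet only 0.685 (0.0573), each with 0 of 9 probes called on chow. Scaling and fitting one diet only also left 0 called on the atherogenic diet. Tsc22d3 was selected there, so nothing is read from that count. Its difference there was 0.947 with scaling and 1.056 with one diet only. The count of all probes called on chow, 263 as reported, ran from 0 to 2920 under these and the other settings with every mouse, and from 3 to 3854 with a mouse left out. With the shared number of the header marks as a random effect, chosen after seeing the data, 2 of the 9 probes were called on chow (consensus correlation -0.101). Deviations over all probes of same-numbered mice had r from -0.427 to -0.033 on chow and -0.058 to 0.103 on the atherogenic diet. They were not set against mice of different numbers, so whether the replicate numbers pair the mice was not tested. With the replicate block, 30 probes were called on chow in all, and Hsd11b1's difference between diets was -0.067. The other values printed here were short of the threshold, or were values of Tsc22d3 given as a description. On chow, quantile normalisation and scaling also reduced Fkbp5 to -0.395 and -0.184, Sgk1 to -0.465 and -0.225, and Tdo2 to -0.918 and -0.611. Quantile normalisation gave Zbtb16 -0.003 on chow, and differences between diets of -0.342 for Fkbp5, -0.004 for Sgk1, 0.048 for its second probe, -0.23 for Hsd11b1 and 0.595 for Tsc22d3, with r of 0.044 for Fkbp5, 0.226 for Sgk1 and 0.348 for Tdo2. Scaling gave differences between diets of 0.038 for Dusp1, -0.544 for Fkbp5, -0.148 for Sgk1, 0.018 for its second probe and -0.257 for Hsd11b1. An offset of the 25th percentile gave Zbtb16 -0.01 on chow and 0.063 between diets and Nr3c1 -0.245 on the atherogenic diet, and array weights gave 0.013 for the second Sgk1 probe. Median centring of the mouse channel gave diet differences in wild type of -0.295 for Dusp1, -0.054 for Fkbp5, -0.327 for Hsd11b1 and -0.2 for Tsc22d3, and in knockout 0.364 for Tsc22d3 with 0 probes called. Without dim probes, 0 were called for the diet in wild type. Rank correlation gave 0.011 for Fkbp5 and 0.084 for Sgk1, chow mice alone 0.147 for Nr3c1, and atherogenic mice alone 0.24 for Fkbp5. Leaving out each mouse in turn moved Tsc22d3 on chow between 0.623 and 0.716 and Dusp1 between -0.031 and 0.369. It moved the probes called of 9 from 0 to 4 on chow, 0 to 1 on the atherogenic diet, 0 to 1 for the diet in wild type and 0 to 2 in knockout. Differences between diets then ran from -0.282 to 0.118 for Dusp1, -0.277 to 0.357 for Hsd11b1, -0.121 to 0.042 for Zbtb16 and -0.107 to 0.013 for the second Sgk1 probe. Diet differences in wild type ran from -0.138 to 0.242 for Dusp1, -0.224 to 0.244 for Fkbp5 and -0.185 to 0.118 for Tdo2, and in knockout from -0.219 to 0.099 for Dusp1. The r with Tsc22d3 ran from -0.198 to 0.045 for Fkbp5, -0.19 to 0.118 for Sgk1 and -0.325 to 0.049 for Tdo2. A second Tsc22d3 probe was not run, as the table has 1. Coarse deposited digits limit Zbtb16, Nr3c1, the second Sgk1 probe and the low Fkbp5 values of knockout chow mice.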
